A study of Mus musculus with 23 samples.

Results

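The Schlafen genes are a family of the mouse that lies mostly in a single cluster on chromosome 11. The 7 genes described here, *Slfn1*, *Slfn2*, *Slfn3*, *Slfn4*, *Slfn5*, *Slfn8* and *Slfn9*, were chosen with their counts in these mice known, and they are 7 of the 27179 genes in the count table. They were matched on the gene symbol, and all 7 were found. Because they were selected on the same counts, their levels, fold changes and calls are given as a description, and no p-value of a member is given or read as evidence.

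The RNA came from livers of 15 female mice, from tissue without visible tumors, and the groups held 6 Ctrl, 6 ABpI F/+ and 3 ABpI F/F mice. In the study's design the Alb-Cre transgene, which acts in hepatocytes, switches on *Braf* V600E from the *Braf* CA allele and deletes both *Trp53* alleles together with 1 (ABpI F/+) or 2 (ABpI F/F) floxed *Icmt* alleles. Ctrl mice carry Alb-Cre, both floxed *Trp53* alleles and 1 floxed *Icmt* allele, but wild-type *Braf*, so loss of *Trp53* from Alb-Cre cells is common to all 15 mice. The floxed *Icmt* allele is hypomorphic even before Cre acts on it. The study reports that ABpI F/F mice were rarely born and showed no outward signs of disease, while ABpI F/+ mice lost weight and fell ill. Between the ABpI groups, loss of the second *Icmt* allele and state of health thus cannot be told apart. The genotype labels of both ABpI groups read BRAF +/+, which differs from the design text, and no label gives a treatment or the age of a mouse. The study describes its ABpI F/F mice as differing in age and in tumor burden, but which of BG183, BG90 and BG38 was the older is not given, so neither could be set beside their values. The strain label of Ctrl mouse BG3 and of all 9 ABpI mice names a further cross to *Braf* tm1Mmcm mice that is missing from the label of the other 5 Ctrl mice, so strain label and group cannot be told apart outside BG3. Total counts per library ran from 24742910 to 32262649, and levels are given as CPM (a library's counts over its TMM-scaled total). The hepatocyte gene *Alb* was the most abundant of 6 hepatocyte markers, at 76790 to 186385 CPM over the 15 mice.

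Schlafen proteins share a conserved core and are named after growth arrest in thymocytes. The family falls into short (*Slfn1*, *Slfn2*), intermediate (*Slfn3*, *Slfn4*) and long members (*Slfn5*, *Slfn8*, *Slfn9*, *Slfn14*), of which the long ones carry a helicase-like domain. Many members are inducible by interferon, and several are best known from lymphocytes and myeloid cells. Some Schlafen proteins cut transfer RNA, among them human SLFN11.

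All 7 members lie within 263.8 kb of chromosome 11 in GRCm38, at chr11:82951349-83215154. *Slfn5* (chr11:82951349-82964840), *Slfn2* (chr11:83065112-83070678), *Slfn1* (chr11:83116849-83122670), *Slfn4* (chr11:83175186-83190216) and *Slfn3* (chr11:83191330-83215154) are on the plus strand. *Slfn9* (chr11:82978390-82991830) and *Slfn8* (chr11:83002158-83020810) are on the minus strand, next to the pseudogene *Slfn10-ps* (chr11:83028130-83040042). *Slfn14* (chr11:83275110-83286726) closes the cluster, and *Slfnl1* is on chromosome 4. Exons of *Slfn5* overlap those of the antisense gene *Slfn5os* over 559 bases. No more than 5 counts fell on the 1102 exon bases of *Slfn5os* in any mouse, and 0 in the ABpI F/F mice, beside 95 to 1428 on the 6326 exon bases of *Slfn5*. The libraries were stranded, but the strand setting of the counting is not given in the sources used here, and if strand was not used, reads within the 559 shared bases cannot be told apart.

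Related members share stretches of sequence. Of all windows of 50 bases in the annotated transcripts, 14.6% of those of *Slfn8* and 11.2% of those of *Slfn9* were found without mismatch in another Schlafen gene, mostly in each other and in *Slfn10-ps*. The share was 8.15% for *Slfn4* and 7.39% for *Slfn3*, which share 252 windows. It was 4.27% for *Slfn2*, 0.606% for *Slfn1* and 0.0% for *Slfn5*. In windows of 150 bases, the length of 1 read, no sharing was left except for 1.46% of *Slfn9*, with *Slfn10-ps*. By the windows of 50 bases, counts of the other members, least so *Slfn1*, are less certain than those of *Slfn5*. This holds as far as the authors' counting could place a read on the wrong copy. By the windows of 150 bases it holds for *Slfn9* alone.

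**Figure D1:**
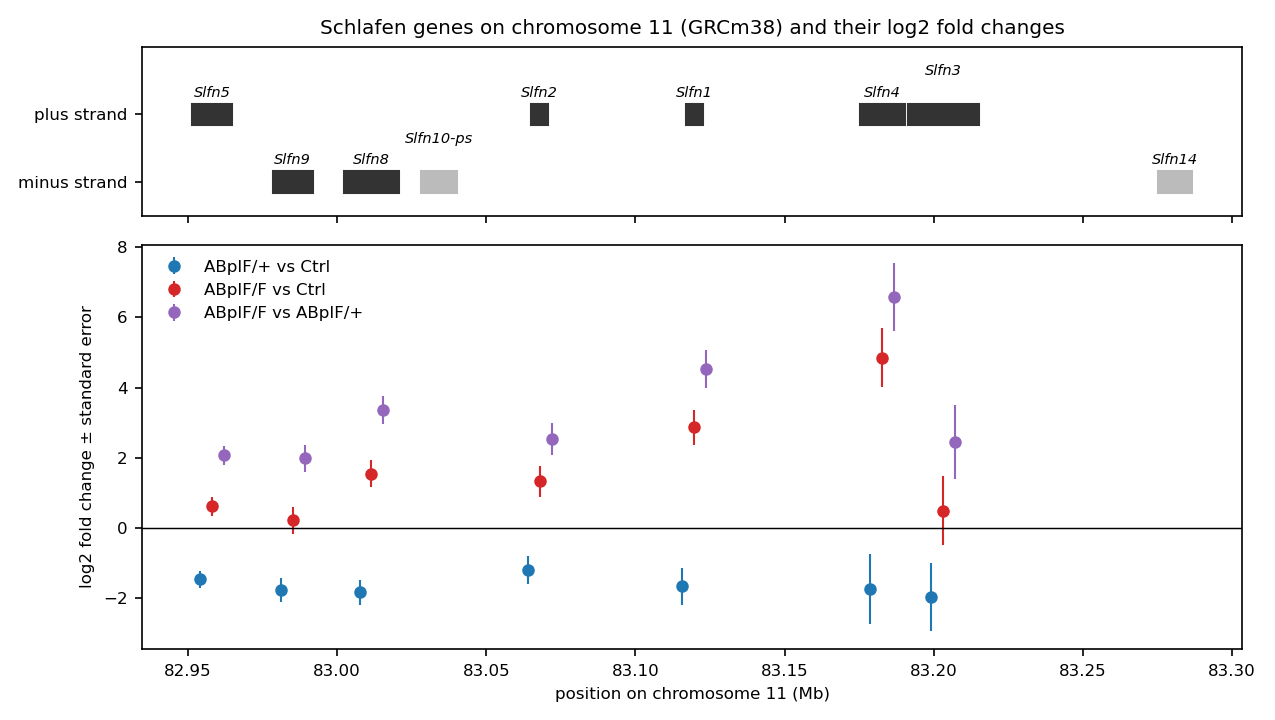
Positions of the Schlafen genes on chromosome 11 of GRCm38 (upper panel, members in black, *Slfn10-ps* and *Slfn14* in grey) and log2 fold changes of the 7 members with standard errors in each of 3 comparisons (lower panel, points set slightly apart sideways). In ABpIF/+ vs Ctrl the 7 points lie between -1.96 and -1.20, and in ABpIF/F vs ABpIF/+ they lie between 1.98 and 6.59.

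Per length, *Slfn5* and *Slfn2* had the highest levels in the liver of Ctrl mice. Levels of different genes were compared as CPM per kb of exon, with exon lengths from GENCODE M21. The median of 6 Ctrl mice was 2.57 for *Slfn5* (range 2.08 to 2.71) and 2.42 for *Slfn2* (1.51 to 3.65), and these ranges overlap. *Slfn9* at 0.705 (0.289 to 1.01) and *Slfn8* at 0.703 (0.572 to 1.05) followed, below every *Slfn2* value and with overlapping ranges. *Slfn1* was at 0.410 (0.293 to 0.528), overlapping with *Slfn9* but not with *Slfn8*. *Slfn4* at 0.113 (0.0706 to 0.217) and *Slfn3* at 0.0598 (0 to 0.0984) were lowest and overlapped. In the ABpI F/F mouse BG38 the order was different, with *Slfn2* at 12.6, *Slfn4* at 8.73, *Slfn1* at 6.58, *Slfn5* at 6.25, *Slfn8* at 4.38, *Slfn9* at 0.836 and *Slfn3* at 0.0731 CPM per kb. The summed CPM of the 7 members was 23.3 to 30.7 (median 28.6) in Ctrl and 6.73 to 13.1 (median 9.33) in ABpI F/+ mice, and 24.0, 48.9 and 131 in the ABpI F/F mice BG183, BG90 and BG38. In bulk liver, fewer cells of a type and less RNA per cell cannot be told apart.

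*Slfn1* (Entrez 20555), a short member that slows the growth of thymocytes and fibroblasts when overexpressed, was at 0.545 to 0.984 CPM in Ctrl mice (median 0.765) and at 0.0754 to 0.409 CPM in ABpI F/+ mice (median 0.241). In the ABpI F/F mice BG183, BG90 and BG38 it was at 0.914, 3.79 and 12.3 CPM, on 28, 106 and 443 reads, while the ABpI F/+ levels rest on 2 to 12 reads. ABpI F/+ mice thus lay below all others, while BG183 lay within the Ctrl range. Its log2 fold change was -1.66 (standard error 0.52) in ABpI F/+ vs Ctrl, 2.87 (0.50) for ABpI F/F vs Ctrl, and 4.53 (0.55) between the ABpI groups (ABpI F/F vs ABpI F/+, as in all such values). Without BG38 the last 2 of these were 1.60 and 3.26.

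*Slfn2* (Entrez 20556), the member needed for quiescence of T cells and mutated in *elektra* mice, was at 2.51 to 6.07 CPM in Ctrl (median 4.02) and 0.927 to 2.32 CPM in ABpI F/+ mice (median 2.08). BG183, BG90 and BG38 had 2.71, 7.57 and 20.9 CPM. Again BG183 was inside the Ctrl range and BG38 was the highest of the 15 mice. The log2 fold change was -1.20 (standard error 0.40) in ABpI F/+ vs Ctrl, 1.33 (0.44) for ABpI F/F vs Ctrl, and 2.53 (0.45) between the ABpI groups. Without BG38 the last 2 of these were 0.31 and 1.503.

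*Slfn4* (Entrez 20558), an intermediate member induced in macrophages by interferon and microbial products and known to mark myeloid suppressor cells in the infected stomach, varied most. It was at 0.280 to 0.861 CPM in Ctrl (median 0.447) and 0.0377 to 0.409 CPM in ABpI F/+ mice (median 0.0973). In BG183, BG90 and BG38 it was at 0.424, 7.90 and 34.6 CPM, on 13, 221 and 1250 reads. The ABpI F/+ levels rest on 1 to 12 reads, with 3 or fewer in 4 of the 6 mice, so fold changes against this group are uncertain. BG38 was 81.6-fold above BG183, whose level was in the Ctrl range, whereas the Ctrl mice spanned 3.08-fold. The log2 fold change was -1.73 (standard error 1.00) in ABpI F/+ vs Ctrl, and -2.41 without BG30. In ABpI F/F vs Ctrl it was 4.85 (0.85), and 3.06 without BG38. Between the ABpI groups it was 6.59 (0.96), and 4.7995 without BG38 or 7.27 without BG30.

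*Slfn3* (Entrez 20557), best known from differentiating gut epithelium, lies directly beside *Slfn4* but was close to the detection limit. It had 0 to 9 reads in Ctrl mice, 7 reads in the ABpI F/+ mouse BG88 and 0 in the other 5, and 8, 7 and 9 reads in BG183, BG90 and BG38. Its ABpI F/F levels of 0.249 to 0.261 CPM were within the Ctrl range of 0 to 0.336 CPM, and the Ctrl mouse without a read was BG3. The log2 fold change was -1.96 (standard error 0.96) in ABpI F/+ vs Ctrl, 0.49 (0.98) for ABpI F/F vs Ctrl, and 2.45 (1.07) between the ABpI groups, on few reads. Without BG88 the first and the last of these were -5.40 and 5.87, which are no bounds, since the ABpI F/+ group then held no read, and *Slfn3* passed the call rule in both.

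*Slfn5* (Entrez 327978), a long nuclear member, had the highest CPM of the family, with 13.2 to 17.2 in Ctrl (median 16.3) and 3.68 to 8.15 in ABpI F/+ mice (median 5.65). The ABpI F/F mice BG183, BG90 and BG38 had 13.6, 18.0 and 39.6 CPM. All ABpI F/+ mice were below all others, and BG183 was within the Ctrl range. Its log2 fold change was -1.45 (standard error 0.24) in ABpI F/+ vs Ctrl, 0.62 (0.28) for ABpI F/F vs Ctrl, and 2.07 (0.27) between the ABpI groups. Without BG38 the last 2 of these were 0.03 and 1.48.

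*Slfn8* (Entrez 276950), a long member expressed in lymphoid tissue, was at 2.34 to 4.28 CPM in Ctrl (median 2.88) and 0.672 to 1.23 CPM in ABpI F/+ mice (median 0.787). Its levels in BG183, BG90 and BG38 were 2.38, 6.29 and 17.9 CPM. The ABpI F/+ mice did not overlap with either group. The log2 fold change was -1.82 (standard error 0.36) in ABpI F/+ vs Ctrl and 3.37 (0.40) in ABpI F/F vs ABpI F/+, where it was 2.34 without BG38. Against Ctrl it was 1.55 (0.38) in ABpI F/F mice, and 0.51 without BG38. *Slfn8* no longer passed the call rule there without any single one of BG38, BG3, malpa454, malpa458, malpa459, malpa462 and BG175, with values of 1.46 to 1.57 for the last 6 of these.

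*Slfn9* (Entrez 237886), the long member beside it, was nearly level among the ABpI F/F mice, as *Slfn3* was on few reads, with 3.62, 5.11 and 4.99 CPM in BG183, BG90 and BG38. The 6 Ctrl mice ranged from 1.72 to 6.00 CPM (median 4.20) and the ABpI F/+ mice from 0.580 to 1.78 (median 1.07). The lowest Ctrl value, 1.72 CPM, was that of BG3, the Ctrl mouse with the strain label of the ABpI mice, and it fell inside the ABpI F/+ range. The Ctrl mouse malpa387, with the other strain label, was nearly as low at 1.94 CPM, and the remaining 4 were at 3.43 CPM or more. The log2 fold change was -1.75 (standard error 0.34) in ABpI F/+ vs Ctrl, where it was -0.575 (0.56) with BG3 as the only Ctrl mouse. It was 0.23 (0.39) in ABpI F/F vs Ctrl, and 1.98 (0.39) between the ABpI groups.

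**Figure D2:**
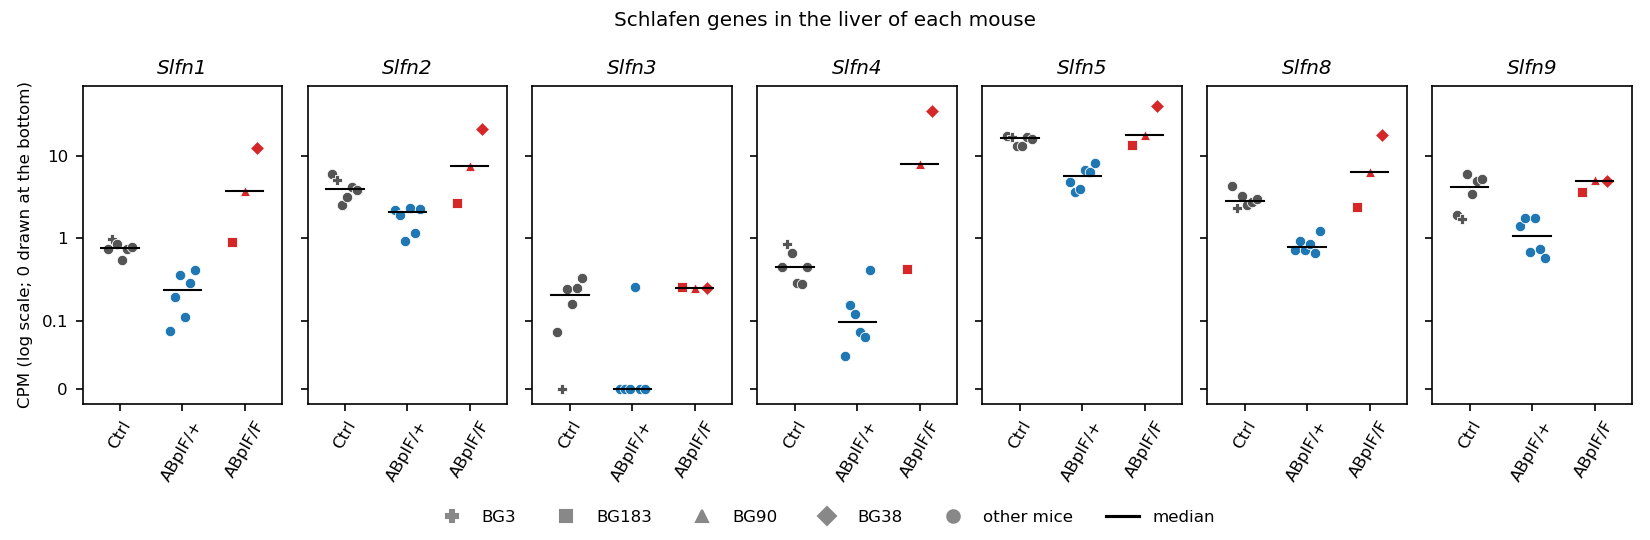
CPM of the 7 Schlafen members in each mouse on a log scale, with 0 drawn at the bottom, by group; each point is 1 mouse, bars are group medians, and symbols mark BG3 and the 3 ABpIF/F mice. BG38 is the highest mouse for *Slfn1*, *Slfn2*, *Slfn4*, *Slfn5* and *Slfn8*, while *Slfn3* and *Slfn9* are nearly level over the ABpIF/F mice.

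A gene was called at an edgeR adjusted p under 0.01 over all 27179 genes and a log2 fold change of 1 or more in either direction. Shares of all genes are out of these 27179, of which only 20380 had reads. A gene without reads cannot be called, so the shares are lower than among genes with reads. In ABpI F/+ vs Ctrl, which asks what *Braf* V600E adds in these livers, *Slfn5*, *Slfn8* and *Slfn9* were called lower, where 5.35% of all genes were called lower and 4.69% higher. All 7 members had a negative log2 fold change in that comparison, with a median of -1.73. Against Ctrl, ABpI F/F livers had *Slfn1*, *Slfn4* and *Slfn8* called higher, where 4.55% of all genes were called higher and 2.38% lower. ABpI F/F vs ABpI F/+ asks what loss of the second *Icmt* allele changes, and there *Slfn1*, *Slfn2*, *Slfn4*, *Slfn5*, *Slfn8* and *Slfn9* were called higher, where 5.49% of all genes were called higher and 1.76% lower. Each group serves in 2 of these comparisons, so they are not independent and stand side by side. At an adjusted p under 0.05, 6.71% of all genes were called lower and 5.72% higher in ABpI F/+ vs Ctrl, and for ABpI F/F vs Ctrl 2.85% were called lower. With the fold change limit raised to 2 on the log2 scale, 2.08% were called lower in ABpI F/+ vs Ctrl, while 2.44% were called higher in ABpI F/F vs Ctrl, and 2.80% called higher in ABpI F/F vs ABpI F/+. Under that limit were *Slfn5*, *Slfn8* and *Slfn9* in ABpI F/+ vs Ctrl, *Slfn8* (1.55) in ABpI F/F vs Ctrl and *Slfn9* (1.98) between the ABpI groups. *Slfn3* was called in none of the 3 comparisons and was also the only member under a mean of 1 CPM and under edgeR's filterByExpr, which 6 of 7 members passed. *Slfn1* and *Slfn2* were also called lower in ABpI F/+ vs Ctrl, making 5 members in place of 3, without BG38 (5.49% of all genes called lower), without BG183 (5.42%), in a fit of the 2 groups alone (5.46%) and with DESeq2 (9.78% of the 17257 genes to which it gave an adjusted p). With BG3 as the only Ctrl mouse 0 members were called lower there (2.35%), with log2 fold changes of -1.57 (standard error 0.49) for *Slfn5*, -1.45 (0.69) for *Slfn8* and -0.575 (0.56) for *Slfn9*. In ABpI F/F vs Ctrl, 1 member was called higher in place of 3 without BG38 (*Slfn4*, with 2.85% of all genes called higher) and in a fit of the 2 groups (*Slfn1*, 4.12%), 4 were called without BG183 (5.45%) and 0 with BG3 as the only Ctrl mouse (1.44%). The calls lost in the fit of the 2 groups were at 4.81 (1.01) for *Slfn4* and 1.51 (0.45) for *Slfn8*, and those lost with BG3 at 2.45 (1.22) for *Slfn1*, 3.98 (2.16) for *Slfn4* and 1.86 (0.84) for *Slfn8*. Between the ABpI groups *Slfn2* no longer passed the call rule in a fit of the 2 groups (2.55, standard error 0.54, with 4.21% of all genes called higher) or with BG3 as the only Ctrl mouse (2.46, standard error 0.53, with 3.95%), and all 7 members passed it without BG88 (4.82%). Nothing is read from these member counts.

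The family genes that were not selected were at or near the limit of detection. *Slfn10-ps* (Entrez 237887) had at most 2 reads in a Ctrl or ABpI F/+ mouse and 3, 3 and 10 reads in BG183, BG90 and BG38. It was not called in ABpI F/F vs Ctrl (edgeR adjusted p = 0.164) or vs ABpI F/+ (edgeR adjusted p = 0.0309). Without BG40 it passed the call rule in the latter, at 5.27 (standard error 1.28) in place of 3.32, which is no bound, since the ABpI F/+ group then held no read. *Slfn14* (Entrez 237890), which is known from platelets and erythroid cells, had no read in the 6 Ctrl mice, at most 1 in ABpI F/+ mice and 0, 1 and 5 in BG183, BG90 and BG38. *Slfnl1* (Entrez 194219) had at most 1, 4 and 3 reads in a Ctrl, ABpI F/+ and ABpI F/F mouse. Neither was called in any of the 3 comparisons, and differences between groups were not detectable at this depth.

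Within 500 kb of the cluster lay 29 other genes of the count table, a stretch that includes the chemokine genes *Ccl3*, *Ccl4*, *Ccl5*, *Ccl6* and *Ccl9*. In ABpI F/+ vs Ctrl 4 of the 29, *Nle1*, *Rasl10b*, *1700020L24Rik* and *Ccl9*, were called higher, with a median log2 fold change of 0.20 over the 25 with more than 3 reads in a mouse. Between the ABpI groups, *Ccl5* (2.03, edgeR adjusted p = 0.00236) and the transcript *AI662270* (1.44, edgeR adjusted p = 0.00611) were called higher, and the median was -0.07. For ABpI F/F vs Ctrl, *Rasl10b* and *Ccl5* were called higher and the median was 0.39. Of all genes, 4.69% were called higher in ABpI F/+ vs Ctrl, 5.49% between the ABpI groups and 4.55% in ABpI F/F vs Ctrl. These neighbours were listed by position only, after the data had been seen, and nothing is read from their counts.

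Interferon signalling runs from ligands through receptors, kinases and transcription factors to target genes, among which several Schlafen genes are counted. Of a list of 59 other genes of this pathway, 9 were ligands, and 8 of these, all but *Ifng*, had 3 reads or fewer in every mouse. *Ifng* itself was at 0 to 0.222 CPM. Bulk RNA of liver thus held too few reads to compare the ligands. The 59 genes, like the cell markers below, were chosen with earlier results of these data known. Their calls and adjusted p-values are therefore a description.

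In ABpI F/+ vs Ctrl, 19 of 29 interferon targets were called lower, with a median log2 fold change of -1.205 beside 0.01 over all genes. Named here and in the next comparisons are the 4 targets with the largest change among those called, with at least 5 CPM in 1 group and with no overlap between the groups, so their lack of overlap is set by this choice. These were *Oas2* and *Oasl2* of the oligoadenylate synthetase family, the immunity-related GTPase *Igtp*, and *Zbp1*, a sensor of Z-form nucleic acid. *Oas2* fell by 2.88 on the log2 scale (standard error 0.32, edgeR adjusted p = 1.24e-06) and *Igtp* by 2.26 (0.17, edgeR adjusted p = 1.52e-09). *Oasl2* fell by 2.16 (0.36, edgeR adjusted p = 0.000309) and *Zbp1* fell by 1.985 (0.22, edgeR adjusted p = 1.28e-06). Of 6 regulators *Irf5* fell by 1.31 (0.13, edgeR adjusted p = 1.22e-07). Moving the other way, the receptor genes *Ifngr1* (1.07, edgeR adjusted p = 5.66e-07) and *Ifnlr1* (3.35, edgeR adjusted p = 2.59e-06) and the inhibitor *Socs3* (2.31, edgeR adjusted p = 0.00301) rose. Over the whole list 21 of 59 genes were called lower and 3 higher.

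Against Ctrl, 15 of 29 targets were called higher in ABpI F/F livers, with a median of 1.06 beside 0.09 over all genes. *Ifi44* rose by 3.30 on the log2 scale (standard error 0.27, edgeR adjusted p = 2.04e-07) and *Oas1a* by 2.87 (0.24, edgeR adjusted p = 1.96e-08). *Mx1*, an antiviral GTPase, rose by 2.72 (0.32, edgeR adjusted p = 2.01e-06) and *Ifit2* by 1.97 (0.31, edgeR adjusted p = 0.000228). *Irf7*, the regulator that amplifies the type I response, rose from 41.3 to 120 CPM (1.54, standard error 0.24, edgeR adjusted p = 0.000187), at 55.1, 114 and 190 CPM in BG183, BG90 and BG38. The receptors *Ifngr1* (1.67, edgeR adjusted p = 2.69e-08) and *Ifnlr1* (3.59, edgeR adjusted p = 8.51e-06) were also higher. Over the list 18 of 59 genes were called higher, and 10 without BG38, with 7 in place of 15 of the targets.

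Between the ABpI groups, 28 of 29 targets were called higher in ABpI F/F mice, with a median of 2.32 beside 0.05 over all genes. *Oas3* rose by 4.55 (standard error 0.54, edgeR adjusted p = 2.13e-05), *Oasl2* by 4.03 (0.41, edgeR adjusted p = 1.15e-05), *Oas2* by 3.47 (0.36, edgeR adjusted p = 3.71e-06) and the ubiquitin-like *Isg15* by 2.94 (0.29, edgeR adjusted p = 4.16e-06). *Irf7* (2.01, edgeR adjusted p = 2.45e-05), *Irf5* (1.70, edgeR adjusted p = 2.88e-07), *Irf8* (1.40, edgeR adjusted p = 0.000114) and the deconjugating enzyme *Usp18* (1.61, edgeR adjusted p = 2.47e-05) rose as well. Summed over the 29 targets, BG183, BG90 and BG38 had 1245, 1607 and 2117 CPM, Ctrl mice 1015 to 1097 and ABpI F/+ mice 407 to 637, the same order of the 3 ABpI F/F mice as for *Slfn1*, *Slfn2*, *Slfn4*, *Slfn5* and *Slfn8*.

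Markers of blood and immune cells also differed between the mice, and their part in the Schlafen levels was not tested. Over all 12 marker lists, 24 markers were called higher in ABpI F/F vs Ctrl and 31 between the ABpI groups. Of all genes, 4.55% and 5.49% were called higher in these comparisons, and the same shares stand beside the counts of single lists. Without BG38, 13 and 17 markers were called higher, with 2.85% of all genes in ABpI F/F vs Ctrl. The count between the ABpI groups was also 17 in a fit of the 2 groups alone, with 4.21% of all genes. Of the 75 markers in the table, 6 were called higher in ABpI F/+ vs Ctrl, but 11 without BG183, and 15 were called lower. Over all genes 4.69% were called higher and 5.35% lower there. The 10 neutrophil markers summed to 2.51 to 4.45 CPM in Ctrl, 3.23 to 9.76 in ABpI F/+ and 5.06, 35.7 and 93.1 CPM in BG183, BG90 and BG38. Of these 10, 9 were called higher in ABpI F/F vs Ctrl, and 6 between the ABpI groups, and the most abundant was *S100a9*. Without BG38 these counts were 5 and 1, and the second was 3 without any single one of BG90, BG55, BG31, BG175 and BG30. In ABpI F/+ vs Ctrl 1 was called higher, but 4 without BG183, and the sums of these groups overlapped. The 6 monocyte markers, of which *Lyz2* held 82.1% of the sum, summed to 61.4 to 85.4 CPM in Ctrl, 25.6 to 49.4 in ABpI F/+ and 55.4, 144 and 248 CPM in BG183, BG90 and BG38. Of the 6, *Lyz2* and *Fcgr1* were called lower and *Chil3* higher in ABpI F/+ vs Ctrl, named here after their values were seen, but *Lyz2* and *Fcgr1* not without BG3 or without BG40, with 4 higher for ABpI F/F vs Ctrl and 5 higher in ABpI F/F vs ABpI F/+. The 8 Kupffer cell and macrophage markers, led by *Clec4f*, summed to 253 to 336 CPM in Ctrl, 110 to 176 in ABpI F/+ and 198, 357 and 400 CPM in BG183, BG90 and BG38. Of these 4 were called lower in ABpI F/+ vs Ctrl and 4 higher in ABpI F/F vs ABpI F/+.

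Lymphocyte markers were at low levels. The 8 T cell markers, led by *Lck*, summed to 3.08 to 6.06 CPM in Ctrl, 1.37 to 3.14 in ABpI F/+ and 3.72, 3.89 and 12.1 CPM in BG183, BG90 and BG38. Of these 2 were called lower in ABpI F/+ vs Ctrl, 1 higher for ABpI F/F vs Ctrl and 2 higher in ABpI F/F vs ABpI F/+, and without BG38 none was called higher in either. The 5 B cell markers, led by *Cd79b*, summed to 2.09 to 4.68, 0.271 to 2.08 and 5.38, 3.50 and 7.84 CPM in the same order, with 2 called lower in ABpI F/+ vs Ctrl and 2 higher in ABpI F/F vs ABpI F/+. The 6 NK cell markers, led by *Gzma*, summed to 1.86 to 2.42, 0.967 to 2.15 and 3.43, 2.64 and 8.00 CPM, with 3 called higher in ABpI F/F vs ABpI F/+, but 0 without BG38 and 1 without any single one of BG90, BG40, BG31 and BG175. Of the 5 plasmacytoid dendritic cell markers, *Bst2*, also an interferon target, held 82.7% of the sum of 148 to 258, 74.4 to 102 and 176, 259 and 250 CPM. There 2 were called lower in ABpI F/+ vs Ctrl, 1 higher for ABpI F/F vs Ctrl and 3 higher in ABpI F/F vs ABpI F/+.

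The remaining lists were those of cholangiocytes, endothelial cells, platelets, erythroid cells and hepatocytes. The cholangiocyte, platelet and erythroid sums rose from BG183 to BG90 to BG38, the same order as for the Schlafen sum. The 5 cholangiocyte markers were dominated by *Spp1*, with 89.3% of the sum, which was 35.6 to 68.1 CPM in Ctrl, 29.9 to 145 in ABpI F/+ and 204, 777 and 1147 CPM in BG183, BG90 and BG38, and 3 and 4 of them were called higher in ABpI F/F vs Ctrl and vs ABpI F/+, but 2 and 1 without BG38. In ABpI F/+ vs Ctrl 1 cholangiocyte marker was called higher and 1 lower. The 6 endothelial markers, led by *Stab2*, summed to 144 to 220, 72.3 to 166 and 241, 173 and 188 CPM, with 2 called lower in ABpI F/+ vs Ctrl and 1 and 2 higher in ABpI F/F vs Ctrl and vs ABpI F/+. The 5 platelet markers, led by *Itga2b*, summed to 3.21 to 6.69, 6.04 to 11.8 and 5.19, 14.3 and 16.8 CPM, with 1 called higher in ABpI F/+ vs Ctrl and 4 in ABpI F/F vs Ctrl, the latter 1 without BG38 and 2 without malpa454. The 5 erythroid markers in the table, led by *Hba-a1*, summed to 32.7 to 151, 73.5 to 239 and 63.8, 80.1 and 114 CPM, with 1 called higher in ABpI F/+ vs Ctrl. The 6 hepatocyte markers, of which *Alb* held 83.8% of the sum, summed to 89990 to 123535 CPM in Ctrl and 160136 to 228041 in ABpI F/+. In BG183, BG90 and BG38 they summed to 209726, 177726 and 119089 CPM, the reverse order of the Schlafen sum in ABpI F/F mice. In ABpI F/+ vs Ctrl the log2 fold changes were 0.79 for *Alb*, 2.21 for *Apoa1*, 0.51 for *Hnf4a* and 0.16 for *Asgr1*. Those of *Ttr* (-0.81) and *Cps1* (-0.61) went the other way. Of the 6 markers 1 was called higher in each comparison with Ctrl. The remaining counts of 2 or fewer called markers in a list moved by at most 2 with a single mouse left out. No marker of the 12 lists was at 3 reads or fewer in all 15 mice. BG38 had the highest sum of the 3 ABpI F/F mice in 9 of the 12 lists, and its TMM factor of 1.24 was the highest of the 15 mice, the others lying between 0.846 and 1.09.

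**Figure D3:**
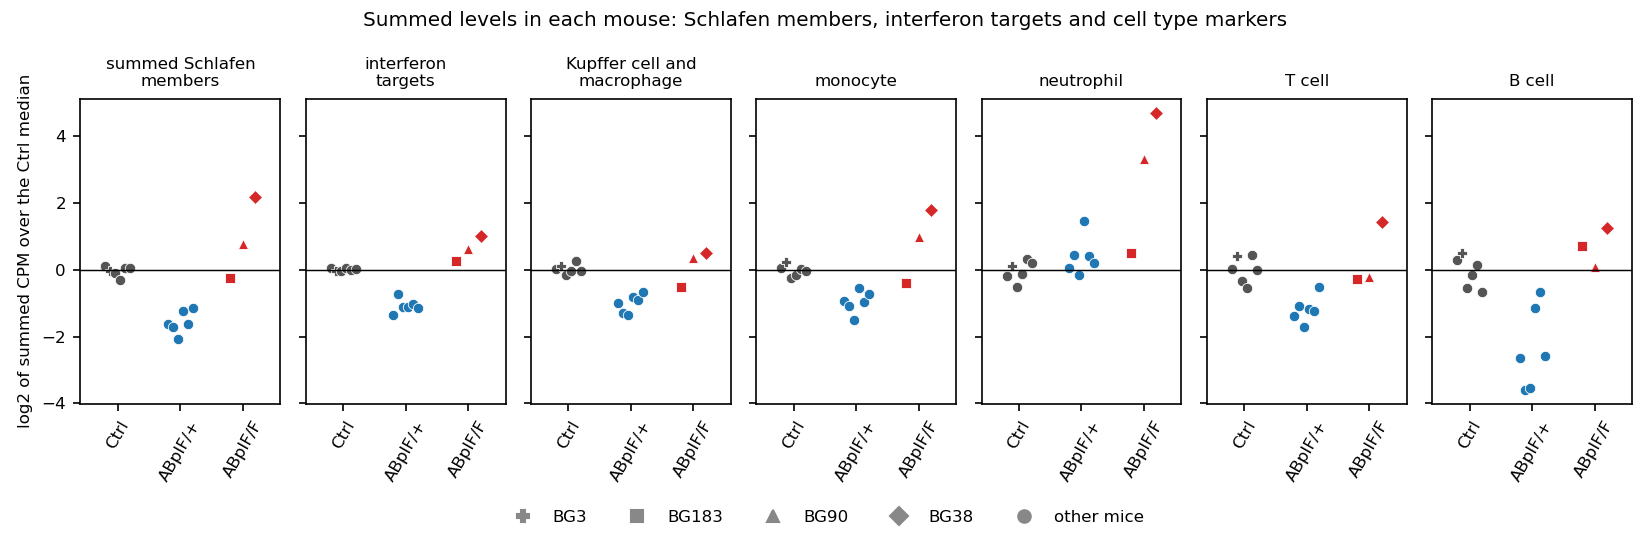
Log2 of the summed CPM over the Ctrl median in each mouse, for the 7 Schlafen members, 29 interferon targets and markers of 5 cell types; each point is 1 mouse, and symbols mark BG3 and the 3 ABpIF/F mice. ABpIF/+ mice lie below all Ctrl mice in every panel but those of neutrophils and T cells, where the groups overlap, and the monocyte sums of BG183, BG90 and BG38 are 55.4, 144 and 248 CPM.

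The genes whose levels were most like those of a member over the 15 mice were found by the root mean square difference of centred log2 CPM among the 12315 genes whose mean reached 1 CPM. For *Slfn5* they were *Mndal* (0.16), a gene of the interferon-inducible p200 family, *Lhfpl6* (0.17) and *Msn* (0.18), which encodes the membrane linker moesin. For *Slfn2* they were *Ctss* (0.33), encoding cathepsin S, *H2-DMa* (0.34), which acts in antigen loading, and the Fc receptor gene *Fcgr4* (0.36). For *Slfn8* they were *Ms4a6c* (0.34), *Oasl2* (0.38) and *Fblim1* (0.39). *Slfn4* was nearest to *Slfn1* (0.77) and to the chemokine receptor gene *Ccr2* (0.83), which is also on the monocyte list. *Slfn1* was nearest to *Pkia* (0.51), *Oasl2* (0.52) and *Col16a1* (0.54). *Slfn9* was nearest to a gene with no symbol in the table (Entrez 381224, 0.53), *Zfhx2* (0.54) and *Zc3hav1* (0.55), which encodes the zinc-finger antiviral protein. The root mean square of a member's own centred log2 CPM was 2.16 for *Slfn4*, 1.57 for *Slfn1* and 1.255 for *Slfn8*. It was 1.07 for *Slfn9*, 1.05 for *Slfn2* and 0.92 for *Slfn5*. A member that varies more can lie further from its nearest genes, so the differences are not ranked between members. The measure describes likeness in these 15 mice and was not tested.

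Promoter windows of the members were searched for short motifs. All 7 members had a RefSeq window (GRCm38.p6) from 250 bases before to 50 after the RefSeq start, and *Slfn8* had a further window that overlaps the printed one. The letters GAAANNGAA, the core of the interferon-stimulated response element, stood on either strand in windows of *Slfn5*, *Slfn8* and *Slfn9*, and in 8.56% of all 32851 windows. They also stood in the window of *Slfn14*, which had at most 5 reads in a mouse, and not in those of *Slfn1*, *Slfn2*, *Slfn3* and *Slfn4*. The letters TTCNNNGAA, the gamma-activated sequence, which read the same on both strands, stood in no member's window and in 8.30% of all windows. The shorter AANNGAAA, which can overlap the first motif, stood in windows of all 7 members and in 23.9% of all windows. A match is a description and not a binding site. The windows of *Slfn5*, *Slfn9* and *Slfn8* are given 5′ to 3′ on the gene's strand with GAAANNGAA or its reverse complement in capitals. That of *Slfn4*, the member that varied most, follows with AANNGAAA or its reverse complement in capitals.
*Slfn5*, chr11:82951852-82952151, plus strand: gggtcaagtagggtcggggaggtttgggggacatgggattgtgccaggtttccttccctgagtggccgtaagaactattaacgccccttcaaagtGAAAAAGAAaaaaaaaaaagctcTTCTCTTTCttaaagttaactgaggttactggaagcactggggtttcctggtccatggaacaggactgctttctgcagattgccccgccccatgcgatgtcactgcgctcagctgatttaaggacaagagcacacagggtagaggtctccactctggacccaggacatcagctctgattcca
*Slfn9*, chr11:82991781-82992080, minus strand: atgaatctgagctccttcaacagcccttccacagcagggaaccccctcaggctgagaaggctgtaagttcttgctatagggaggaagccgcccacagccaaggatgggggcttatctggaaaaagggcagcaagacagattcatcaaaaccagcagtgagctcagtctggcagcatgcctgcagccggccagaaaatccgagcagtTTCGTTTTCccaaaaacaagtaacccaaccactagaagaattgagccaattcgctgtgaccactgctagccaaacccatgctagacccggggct
*Slfn8*, chr11:83020761-83021060, minus strand: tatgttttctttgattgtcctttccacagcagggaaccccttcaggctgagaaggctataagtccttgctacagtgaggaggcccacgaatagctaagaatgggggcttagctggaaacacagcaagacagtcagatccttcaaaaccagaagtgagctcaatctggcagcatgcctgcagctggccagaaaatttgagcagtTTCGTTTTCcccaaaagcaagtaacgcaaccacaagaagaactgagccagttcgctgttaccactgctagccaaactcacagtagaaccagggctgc
*Slfn4*, chr11:83174936-83175235, plus strand: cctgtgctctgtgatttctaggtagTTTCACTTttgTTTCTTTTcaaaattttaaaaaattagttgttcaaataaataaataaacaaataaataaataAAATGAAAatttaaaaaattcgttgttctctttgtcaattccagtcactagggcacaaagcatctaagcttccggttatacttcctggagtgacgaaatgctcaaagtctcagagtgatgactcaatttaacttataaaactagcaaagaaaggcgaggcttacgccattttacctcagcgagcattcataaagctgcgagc
The match of *Slfn9* ended 35 bases before the RefSeq start and that of *Slfn8* 38 bases before it, both as the reverse complement and with the same letters, TTCGTTTTC. *Slfn5* had a pair of matches, ending 146 and 123 bases before its RefSeq start. That start, at position 82952102, lies 753 bases inside the span given for *Slfn5* above, which is that of GENCODE and begins with a further transcript, so the printed window and both matches lie within that span. For the other 3 printed windows the RefSeq and GENCODE starts were the same.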

How the data were processed

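Liver RNA of 15 mice was measured as counts per gene, which the authors made with HISAT2 (mm10) and featureCounts 2.0.8 and deposited as a table of counts for 27179 genes. The annotation and the strand setting of the counting are not given in the sources used here. The labels list 23 samples for the 15 columns, since 8 mice are named by 2 samples, and each column was taken as 1 mouse. Counts were fitted in edgeR 4.0.16 (R 4.3.3) with TMM factors, all genes kept, robust dispersions and 1 quasi-likelihood fit of 3 groups in the legacy form. P-values were adjusted by Benjamini-Hochberg over all 27179 genes. The call rule was an adjusted p below 0.01 with a log2 change of 1 or more up or down. Standard errors are the absolute log2 fold change over the root of F. The edgeR fit was run on simulated data with the adjusted p limit alone, so the fold change limit of the call rule was not tested there.

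The members and the lists were chosen with earlier results of these data known. Log2 CPM for the nearest genes had a prior count of 2. Levels per kb use exon lengths of GENCODE M21, since the counting table gives none. Named were all Schlafen genes, each called interferon ligand, receptor, regulator and inhibitor, and per comparison the 4 called targets with the largest change among those with at least 5 CPM in 1 group and no overlap. Of each marker list the most abundant gene was named, and for each member with at least 1 CPM the 3 nearest genes (2 for *Slfn4*). Neighbours were named after their values were seen. *Ddx58* is listed as *Rigi* in the table and was matched by gene ID, and *Hbb-bt* was not matched. Fitted values were compared with DESeq2 1.42.0, RLE size factors, filterByExpr, the edgeR 4 quasi-likelihood form, fits of 2 groups, other thresholds, single mice left out and BG3 as the only Ctrl mouse. The authors' own columns of fold changes and p-values were not used, nor were 5 columns of the other table with numbers for names. Protein sequences were not analysed. Replicates are separate mice, and 3 counts, taken as the floor of detection, cover counting error only.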

Additional observations from a re-analysis of the deposited data

Results flagged for a closer look

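Within groups of 6 mice, 4 values of Schlafen genes passed the limit of Dixon's ratio, the gap to the nearest value over the range, which for the members is a description. *Slfn3* was at 0.258 CPM in the ABpI F/+ mouse BG88 and at 0 in the other 5. *Slfn4* was at 0.409 CPM in the ABpI F/+ mouse BG30, where the next value was 0.155 and the lowest 0.0377 CPM. *Slfn10-ps* was at 0.0774 CPM in the ABpI F/+ mouse BG40 and at 0 in the other 5. *Slfnl1* was at 0.0321 CPM in the Ctrl mouse malpa458 and at 0 in the other 5. Where the other 5 mice are at 0 the ratio is 1 whatever the value, and the values of *Slfn10-ps* and *Slfnl1* rest on 2 reads and 1 read, under the floor of 3 counts. Chance flags about 1 in 20 groups, and 19 groups were tested, but with so many values at 0 the number of flags is not to be set against that rate. The ABpI F/F group, with 3 mice, was not tested.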

How the results depend on the processing

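Of the member log2 fold changes under the alternatives, 417 kept their direction and side of the call rule, 13 came to pass it, 19 no longer passed it and 1 changed sign. Of those of *Slfn10-ps*, *Slfn14* and *Slfnl1*, 174 kept both, 1 came to pass the rule (*Slfn10-ps* between the ABpI groups without BG40, which left the ABpI F/+ group no read) and 5 changed sign.

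In ABpI F/+ vs Ctrl, 3 members and 5.35% of all genes were called lower, but 5 with DESeq2 (9.78% of 17257 genes with an adjusted p), 5 in a fit of the 2 groups (5.46%), 5 at an adjusted p under 0.05 (6.71%), 0 at a log2 fold change of at least 2 (2.08%) and 0 with BG3 as the only Ctrl mouse (2.35%), where *Slfn5* was at -1.57 (standard error 0.49), *Slfn8* at -1.45 (0.69) and *Slfn9* at -0.575 (0.56). In ABpI F/F vs Ctrl, 3 and 4.55% were called higher, but 1 in a fit of the 2 groups (4.12%), with *Slfn4* at 4.81 (1.01) and *Slfn8* at 1.51 (0.45), and 0 with BG3 alone (1.44%), with *Slfn1* at 2.45 (1.22), *Slfn4* at 3.98 (2.16) and *Slfn8* at 1.86 (0.84). Between the ABpI groups 6 and 5.49% were called higher, but 5, without *Slfn2*, in a fit of the 2 groups (4.21%) and with BG3 alone (3.95%). At a log2 fold change of at least 2, interferon genes called numbered 4 in place of 21 lower in ABpI F/+ vs Ctrl, 4 in place of 18 higher for ABpI F/F vs Ctrl, and 21 in place of 33 higher between the ABpI groups. With BG3 alone they numbered 0 higher and 7 lower in ABpI F/+ vs Ctrl and 2 higher in ABpI F/F vs Ctrl. This fit has 1 Ctrl mouse, assumed to vary like the other groups.

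Markers called higher in ABpI F/+ vs Ctrl numbered 6, but 10 with DESeq2, 10 in a fit of the 2 groups, 11 at an adjusted p under 0.05 and 2 with BG3 alone. Those called lower numbered 15, but 2 at a log2 fold change of at least 2 and 2 with BG3 alone. In ABpI F/F vs Ctrl 24 were called higher, but 1 with BG3 alone. There edgeR called 0 lower, but 1 with DESeq2, 1 with filterByExpr, 1 with the edgeR 4 form and 1 at an adjusted p under 0.05. In ABpI F/F vs ABpI F/+ 31 were called higher, but 17 in a fit of the 2 groups and 16 with BG3 alone, and DESeq2 called 1 lower in place of 0. AANNGAAA in place of GAAANNGAA was in 7 member promoters in place of 3. With a prior count of 0.5 the same 18 nearest genes were found.

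With single mice left out, members called lower in ABpI F/+ vs Ctrl ranged from 3 to 5 (5 without BG183 or BG38, with 5.42% and 5.49% of all genes), members called higher in ABpI F/F vs Ctrl from 1 (without BG38, 2.85%) to 4 (without BG183, 5.45%), and those between the ABpI groups from 6 to 7 (without BG88, 4.82%). Interferon genes called ranged from 18 to 22 lower in ABpI F/+ vs Ctrl, from 10 (without BG38) to 23 higher in ABpI F/F vs Ctrl, and from 31 to 35 higher between the ABpI groups. Markers called higher ranged from 4 to 11 (without BG183) in ABpI F/+ vs Ctrl, from 13 (without BG38) to 28 for ABpI F/F vs Ctrl, and from 17 (without BG38) to 36 between the ABpI groups. Markers called lower ranged from 11 to 16 in ABpI F/+ vs Ctrl and from 0 to 1 against Ctrl in ABpI F/F mice (1 without malpa387, BG3 or BG31).

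With BG3 alone the log2 fold change in ABpI F/+ vs Ctrl was 3.44 (3.46) for *Slfn3* and 1.93 (2.83) for *Slfn10-ps*, but BG3 had 0 reads of either, so these are no folds. Between the ABpI groups it was -0.0375 for *Slfn14* without BG38, with a range of -0.0375 to 2.07 over mice left out. For *Slfnl1* it was -0.0367 without BG88, -0.07 without BG175 and -0.31 without BG38, with a range of -0.31 to 1.10. *Slfn3* and *Slfn4* summed gave 4.43 for ABpI F/F vs Ctrl and 6.25 between the ABpI groups, and *Slfn8* and *Slfn9* summed gave 0.96 in ABpI F/F vs Ctrl. The cause of the other changes was not tested.

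No paired analysis was possible because the labels give no replicate number that groups share, the suffixes mark samples of the same mouse, and the table has 1 column per mouse. The other deposited table held 10 of the columns with 0 differing values over 27179 genes and was not run in full. Depth limits *Slfn3*, *Slfn10-ps*, *Slfn14* and *Slfnl1*, whose reads were too few to compare groups, and the fold changes of *Slfn4* against ABpI F/+ mice, of which 4 had 3 reads or fewer.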
